A study of Mus musculus with 6 samples.

Results

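The 9 genes described here, Glul, Rhbg, Slc1a2, Oat, Cyp2e1, Cyp1a2, Axin2, Lgr5 and Tbx3, are genes that hepatocytes near the central vein express or that Wnt signalling drives there. They were listed by name, with earlier results of these data known, and each of the 9 was found among the 46095 gene symbols of the deposited table. The study asked how loss of ARRB1 (beta-arrestin 1, which binds G protein-coupled receptors and routes their signals) acts on diet-induced fatty liver disease. RNA was sequenced in 3 ARRB1 knockout and 3 wild-type libraries, labelled as hepatocytes from the liver of C57BL/6 mice, all on a high-fat diet for 26 weeks. The titles of all 3 knockout libraries name ARRB1, whereas the genotype labels read ARRB1-/- for replicate 1, ARRB2-/- for replicate 2 and ARRB3-/- for replicate 3. The sources used here give neither the sex nor the age of the mice, nor how the knockout was made, and say only that the profiles were taken in triplicate. P-values therefore measure the spread between these libraries. No group on another diet was analysed here.

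Blood crosses the liver lobule from the portal vein to the central vein, and hepatocytes along that path express different genes. Endothelial cells of the central vein release Wnt ligands and R-spondin 3. In hepatocytes nearby, the Wnt signal stabilises beta-catenin, which with TCF factors turns on the pericentral programme. Glul (glutamine synthetase) is the best known of these genes and is confined to the hepatocytes next to the vein, where it binds ammonium that the periportal urea cycle has left. Cyp2e1 and Cyp1a2 occupy a wider pericentral zone. RNA from whole samples does not give the position of a cell, and in such samples fewer cells of a type and less RNA per cell cannot be told apart.

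The letters just before the start sites are shown for Glul, the pericentral gene closest to the vein, and for the P450 genes Cyp2e1 and Cyp1a2, whose fitted differences had opposite signs, although neither passed the test and the groups of both overlapped. Of the 9 genes, 6 had an entry in the RefSeq promoter table (GRCm38.p6). Each line gives the 250 bases before the start site, 5′ to 3′ on the strand of the gene, read from RefSeq and not from the libraries. Capitals mark the TCF-type letters CTTTGA on either strand (TCAAAG when read on the other strand) in Cyp2e1 and Cyp1a2, and the letters CCAAT in Glul. The windows are chr1:153899679-153899928 (plus strand) for Glul, chr7:140763569-140763818 (plus strand) for Cyp2e1 and chr9:57683656-57683905 (minus strand) for Cyp1a2.
Glul: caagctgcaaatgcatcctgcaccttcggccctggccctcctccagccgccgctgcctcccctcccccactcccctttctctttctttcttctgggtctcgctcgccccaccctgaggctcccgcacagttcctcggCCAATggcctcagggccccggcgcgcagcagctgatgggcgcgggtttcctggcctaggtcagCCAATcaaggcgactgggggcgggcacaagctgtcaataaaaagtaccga
Cyp2e1: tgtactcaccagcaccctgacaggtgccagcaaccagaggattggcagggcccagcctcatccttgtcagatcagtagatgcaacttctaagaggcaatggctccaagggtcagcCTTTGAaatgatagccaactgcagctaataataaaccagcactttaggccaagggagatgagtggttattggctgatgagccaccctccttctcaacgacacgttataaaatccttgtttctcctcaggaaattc
Cyp1a2: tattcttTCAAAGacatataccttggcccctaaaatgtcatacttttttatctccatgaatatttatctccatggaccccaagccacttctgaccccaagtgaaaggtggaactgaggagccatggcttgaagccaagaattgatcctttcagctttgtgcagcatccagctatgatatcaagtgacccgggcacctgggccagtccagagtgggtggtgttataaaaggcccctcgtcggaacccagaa
CTTTGA began 135 bases before the start in Cyp2e1, on the strand of the gene. In Cyp1a2 its first letter in the printed line lay 243 bases before the start, on the other strand. The Glul window held CTTTGA on neither strand, and held CCAAT on its own strand beginning 113 and 50 bases before the start. CTTTGA stood in 3 of the 6 windows of these genes, the third being that of Slc1a2, and in 13.8% of all 32851 windows of that length in the table. The Slc1a2 window (chr2:102706188-102706437) lies inside the gene, which begins at 102658239, so it precedes an inner start. The Axin2 window (chr11:108920099-108920348) also lies inside its gene, which begins at 108917828. CCAAT, searched on both strands, stood in 3 of the 6 and in 33.8% of all windows. GCGTG, the core letters of the Ah receptor site, stood in none of the 6 windows and in 28.2% of all windows, both strands searched. Such matches are descriptions of letters and not binding sites.

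The values are FPKM, fragments scaled to gene length and to the fragments of the library, so levels of different genes can be compared per length. Estimated depth ran from 13910000 to 35060000 fragments a library, with knockout replicate 1 the shallowest. Arrb1 itself was at 0.918, 1.05 and 1.16 FPKM in knockout replicates 1 to 3, against 3.86, 22.7 and 16.9 FPKM in wild-type replicates 1 to 3, with no overlap between the groups (log2 difference -2.64 ± 0.514, SE; limma, adjusted p = 0.0275, and 0.0596 to 0.1001 with any 1 knockout library or wild-type replicate 2 or 3 left out). Across the table, 564 genes were higher and 170 lower in the knockout libraries of 10633 tested, against 346 and 232 after median-of-ratios scaling and 371 and 204 after quantile normalization. Alongside hepatocyte markers, of which 8 of 9 were in the table, the libraries held markers of other liver cells. All 10 endothelial, all 10 Kupffer cell and macrophage and all 9 stellate cell markers averaged at least 1 FPKM, as did 4 of 6 cholangiocyte and 1 of 6 lymphocyte markers.

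Of the 9 pericentral genes, Rhbg rose in the knockout libraries, and the other 8 did not pass the test. All 9 averaged at least 1 FPKM and were tested. Rhbg is the 1 call among the 9, where 6.9% of all genes tested were called, 5.3% higher and 1.6% lower. A further 3 genes, Glul, Cyp1a2 and Lgr5, had an unadjusted p under 0.05, so that 4 of 9 did, as did 25.3% of all genes tested. The difference was positive for 7 of the 9, beside 63.6% of all genes tested, and negative for Cyp1a2 and Lgr5. The median log2 difference of the 9 was 0.28, beside 0.07 over all genes tested. The groups did not overlap for 2 of the 9, both higher in the knockout libraries, or 22.2%, which is near the 23.4% of all genes tested that were higher without overlap. Groups did not overlap for 31.2% of all genes tested in either direction and for 7.81% in the lower direction, where none of the 9 stood.

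**Figure D1:**
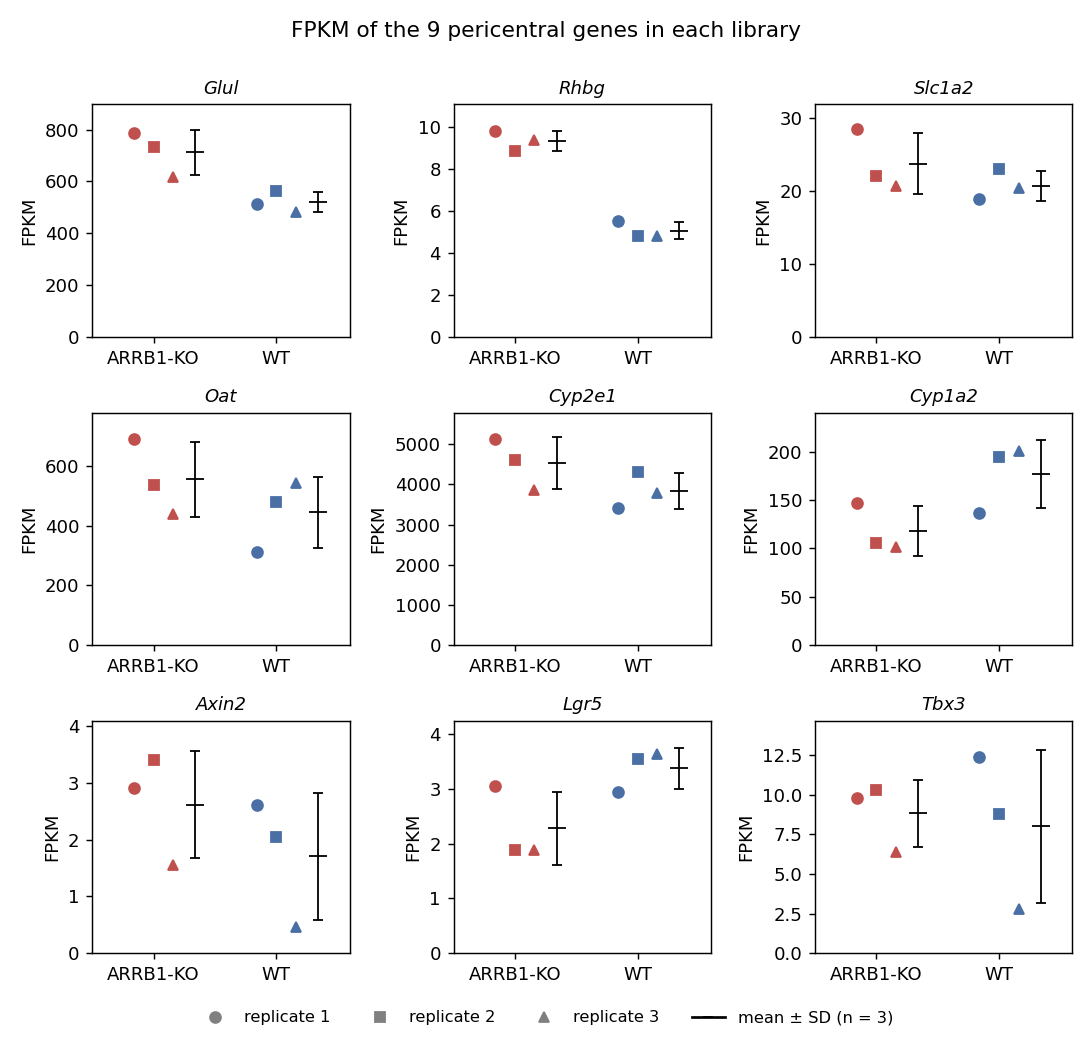
FPKM of each of the 9 genes (vertical axis, starting at 0) in the 3 ARRB1-KO and 3 WT libraries, 1 point per library with its shape giving the replicate number and bars giving mean ± SD. The ARRB1-KO points lie above all WT points for Glul and Rhbg, while the groups overlap for the other 7 genes.

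Rhbg and Glul are known from the same hepatocytes next to the central vein, and here both were at a higher level in every knockout library than in any wild-type library. Rhbg encodes a Rhesus family transporter of ammonium in the cell membrane, and Glul joins that ammonium to glutamate. Rhbg was at 9.82, 8.88 and 9.38 FPKM in knockout replicates 1 to 3, against 5.56, 4.83 and 4.83 FPKM in wild-type replicates 1 to 3. The 3 knockout libraries lay close together and well above the 3 wild-type libraries. Its mean was 9.36 ± 0.47 FPKM in knockout and 5.07 ± 0.418 FPKM in wild type (SD, n = 3 each), a 1.84-fold ratio of means, and its log2(FPKM + 1) difference was 0.77 ± 0.0906 (SE; limma, adjusted p = 0.00574), with a 95% interval of 0.56 to 0.98. An exact permutation test (two-sided) gave p = 0.1, below which 3 against 3 libraries cannot go. These levels rest on 261, 595 and 523 recovered reads in knockout and 354, 258 and 280 in wild type. Rhbg was called under all 16 alternatives, with adjusted p between 0.00472 and 0.0341.

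Glul was at 789, 732 and 618 FPKM in knockout replicates 1 to 3, against 513, 562 and 484 FPKM in wild-type replicates 1 to 3. The lowest knockout library stood above the highest wild-type library, with a gap between them that was smaller than the spread inside the knockout group. The means were 713 ± 86.8 FPKM in knockout and 519.6 ± 39.2 FPKM in wild type (SD, n = 3 each), a 1.37-fold ratio. The log2 difference of 0.45 ± 0.122 (SE; 95% interval 0.17 to 0.73) did not pass the test (limma, adjusted p = 0.0696; exact permutation p = 0.1). It passed on the TPM scale (adjusted p = 0.0435) and by voom on the recovered reads (adjusted p = 0.0461), and its adjusted p was 0.162 after median-of-ratios scaling. By level, Glul was the 97th of all genes and lay far above Rhbg in every library. The ratio of Rhbg to Glul within a library was 0.0124, 0.0121 and 0.0152 in knockout, against 0.0108, 0.00861 and 0.00999 in wild type, so the ratio too was higher in every knockout library. That ratio was chosen after the values were seen and was not tested.

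Slc1a2 and Oat supply or handle the glutamate that Glul uses, and neither passed the test. Slc1a2 encodes a glutamate transporter, and Oat the mitochondrial ornithine aminotransferase, which yields glutamate. Slc1a2 was at 28.5, 22.1 and 20.8 FPKM in knockout replicates 1 to 3, against 18.9, 23.0 and 20.4 FPKM in wild-type replicates 1 to 3. Knockout replicate 1 stood apart above the other 5 libraries, which overlapped. The log2 difference was 0.18 ± 0.133 (SE; 95% interval -0.13 to 0.49; limma, adjusted p = 0.437), and without knockout replicate 1 it was 0.05. Oat was at 688, 537 and 438 FPKM in knockout replicates 1 to 3, against 311, 479 and 543 FPKM in wild-type replicates 1 to 3. The wild-type values spread as widely as the knockout ones, and the groups overlapped. The log2 difference was 0.33 ± 0.236 (SE; 95% interval -0.21 to 0.88; limma, adjusted p = 0.416), which was 0.17 when knockout replicate 1 was left out and 0.10 when wild-type replicate 1 was. Both intervals leave room for a change in either direction.

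Neither P450 gene passed the test, and the signs of their fitted differences were opposite. Cyp2e1 encodes the P450 that oxidises ethanol and other small molecules, and Cyp1a2 the Ah receptor target that metabolises caffeine and aromatic amines. Cyp2e1 was at 5129, 4614 and 3851 FPKM in knockout replicates 1 to 3, against 3424, 4301 and 3782 FPKM in wild-type replicates 1 to 3. It was the most abundant of the 9 genes and the 9th of all genes by mean level, and its groups overlapped. Its log2 difference was 0.24 ± 0.157 (SE; 95% interval -0.13 to 0.60; limma, adjusted p = 0.386), and 0.62 after quantile normalization (adjusted p = 0.0978). Cyp1a2 was at 148, 105 and 101 FPKM in knockout replicates 1 to 3, against 137, 195 and 201 FPKM in wild-type replicates 1 to 3. Knockout replicate 1 and wild-type replicate 1 lay between the other pairs and crossed over. The means were 118 ± 25.7 FPKM in knockout and 177.5 ± 35.2 FPKM in wild type (SD, n = 3 each). The log2 difference of -0.59 ± 0.192 (SE; 95% interval -1.03 to -0.14) did not pass the test (limma, adjusted p = 0.110), nor did it under any alternative, where adjusted p lay between 0.0582 and 0.29. Within a library, the ratio of Cyp1a2 to Cyp2e1 was 0.0288, 0.0228 and 0.0263 in knockout, against 0.0400, 0.0453 and 0.0530 in wild type, with no overlap. This ratio was also chosen after the values were seen and was not tested.

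Axin2, Lgr5 and Tbx3 are read as direct targets of Wnt signalling. None of them passed the test, and the signs of their fitted differences were not all the same. Axin2 encodes a scaffold of the complex that degrades beta-catenin and so feeds back on the pathway. It was at 2.90, 3.395 and 1.56 FPKM in knockout replicates 1 to 3, against 2.61, 2.05 and 0.454 FPKM in wild-type replicates 1 to 3. The lowest value in each group was that of replicate 3, and the groups overlapped. The log2 difference was 0.48 ± 0.349 (SE; 95% interval -0.33 to 1.30; limma, adjusted p = 0.425), and it was 0.09 without wild-type replicate 3, which held 61 reads against 254 or more in the other wild-type libraries. Tbx3, a T-box transcription factor, was at 9.76, 10.3 and 6.40 FPKM in knockout replicates 1 to 3, against 12.4, 8.76 and 2.82 FPKM in wild-type replicates 1 to 3. Replicate 3 was again the lowest of each group, and the wild-type values spanned the knockout ones. The log2 difference of 0.28 ± 0.422 (SE; 95% interval -0.70 to 1.26; limma, adjusted p = 0.718) turned to -0.25 without wild-type replicate 3.

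Lgr5, a receptor for R-spondins that keeps Wnt receptors on the cell surface, was at 3.05, 1.89 and 1.89 FPKM in knockout replicates 1 to 3, against 2.94, 3.55 and 3.63 FPKM in wild-type replicates 1 to 3. Knockout replicates 2 and 3 were below every wild-type library, while knockout replicate 1 was above wild-type replicate 1. The means were 2.28 ± 0.671 FPKM in knockout and 3.37 ± 0.375 FPKM in wild type (SD, n = 3 each). The log2 difference of -0.43 ± 0.155 (SE; 95% interval -0.79 to -0.07) did not pass the test (limma, adjusted p = 0.136). Without knockout replicate 1 it was -0.59 and passed (adjusted p = 0.0424), and with any other library left out adjusted p was at least 0.177.

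**Figure D2:**
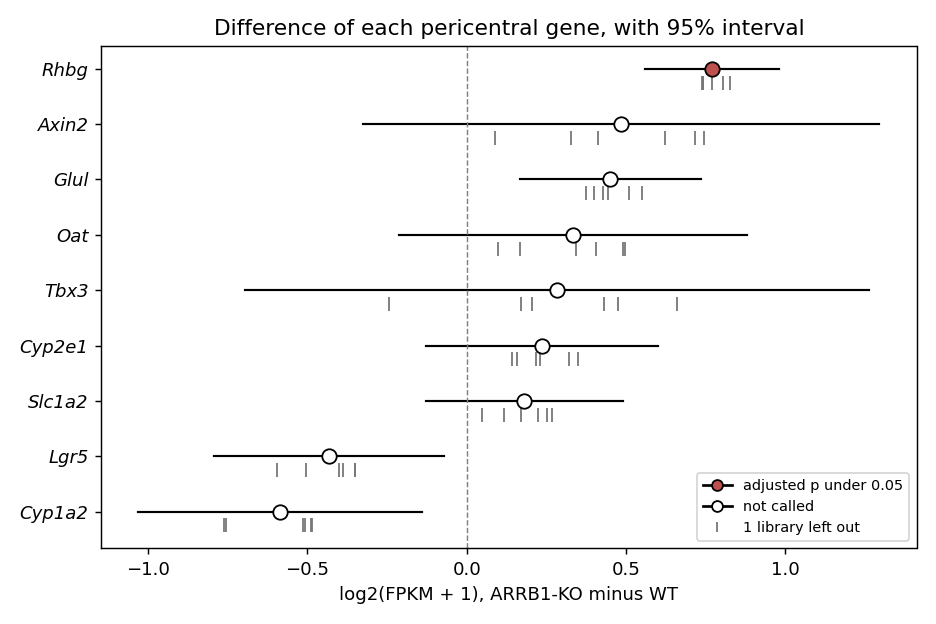
Difference in log2(FPKM + 1), ARRB1-KO minus WT, of each of the 9 genes (circles, filled where the adjusted p was under 0.05) with its 95% interval (line) and the values with 1 library left out (ticks below). Rhbg at 0.77 is the filled point, and the tick of Tbx3 at -0.25 lies on the other side of 0 from its main value of 0.28.

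The order of the knockout libraries was shared by many of the 9 genes. Knockout replicate 1 was the highest knockout library for 7 of the 9 (all but Axin2 and Tbx3), whereas it was the highest for 24.5% of all genes tested. Knockout replicate 3 was the lowest for 7 of the 9, against 35.9% of all genes tested. Among wild-type libraries, replicate 1 was the lowest for Cyp2e1, Cyp1a2, Oat, Lgr5 and Slc1a2, or 5 of 9, against 30.4% of all genes tested. Wild-type replicate 3 was the lowest for Glul, Axin2, Rhbg and Tbx3, or 4 of 9, against 28.9%. Each wild-type library was the highest for 3 of the 9, so no wild-type order was common to most of them. Knockout replicate 1 was also the library with the fewest fragments, and the part of depth in its high values was not tested. Glul and Rhbg lay above wild type in knockout replicates 2 and 3 too.

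Pericentral and periportal enzymes were set against each other within each library, where scaling between libraries plays no part. The comparison asked whether the balance of the zones differed, through 3 ratios. Glul to Cps1 (carbamoyl phosphate synthetase, the periportal entry of ammonia into the urea cycle) was 4.20, 4.44 and 3.32 in knockout replicates 1 to 3, against 1.803, 1.70 and 1.56 in wild-type replicates 1 to 3. Every knockout ratio exceeded every wild-type ratio, and the log2 ratio differed by 1.23, or 2.35-fold. Glul to Gls2 (the periportal glutaminase that breaks glutamine down) was 8.63, 9.24 and 7.41 in knockout, against 6.05, 4.88 and 3.79 in wild type. These groups did not overlap either, and the log2 ratio differed by 0.80, or 1.74-fold. Each of these ratios had an exact two-sided permutation p of 0.1, the smallest possible, and 0.15 adjusted over the 3 ratios.

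The balance of the P450 genes gave no such separation. Cyp2e1 to Cyp2f2 (a periportal P450) was 8.60, 8.20 and 5.05 in knockout, against 6.34, 9.64 and 5.84 in wild type. The groups overlapped, with mean log2 ratios of 2.83 ± 0.425 in knockout and 2.83 ± 0.388 in wild type (SD, n = 3 each; exact permutation p = 1). The Glul to Cps1 ratio joins a Glul level that was higher without passing the test to Cps1, which fell to 180 ± 13.0 FPKM in knockout, against 308 ± 22.9 FPKM in wild type (SD, n = 3 each; log2 difference -0.78 ± 0.1001, SE; limma, adjusted p = 0.00794). Gls2 averaged 84.6 ± 6.17 FPKM in knockout and 109 ± 22.05 FPKM in wild type (SD, n = 3 each) and did not pass the test (limma, adjusted p = 0.206).

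**Figure D3:**
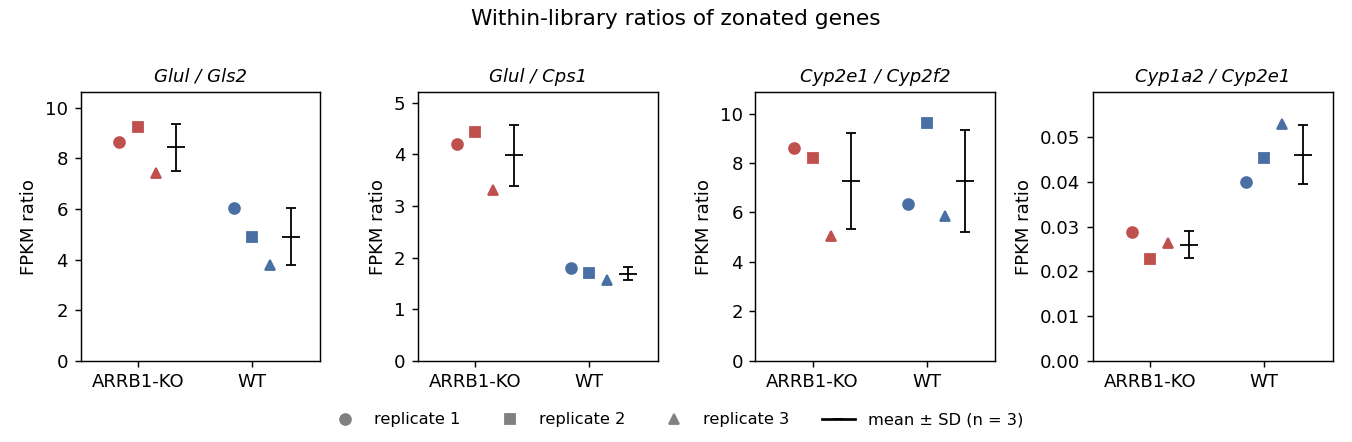
FPKM ratio of a gene pair within each library (vertical axis, starting at 0) in the 3 ARRB1-KO and 3 WT libraries, with mean ± SD. The Glul to Gls2 and Glul to Cps1 ratios are higher in each ARRB1-KO library than in any WT library, the Cyp2e1 to Cyp2f2 ratios overlap, and the Cyp1a2 to Cyp2e1 ratios are lower in each ARRB1-KO library.

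Components of the Wnt pathway upstream of the 9 genes were listed in 3 groups, with 0 of 3, 1 of 16 and 1 of 11 tested genes called. Over all genes tested, 6.9% were called. Of 8 listed genes for Wnt ligands and their secretion, 3 averaged at least 1 FPKM, and 0 of these were called by limma. All 3 had an unadjusted p under 0.05 (limma), as did 25.3% of all genes tested. By voom 1 of the 3 was called, Wnt2, where 792 of 10633 genes were called higher and 201 lower. Wnt2, an endothelial ligand, was at 1.56, 1.51 and 1.99 FPKM in knockout, against 0.927, 0.904 and 1.07 FPKM in wild type, and its groups did not overlap (log2 difference 0.45 ± 0.12, SE; limma, adjusted p = 0.0683, with a range of 0.0902 to 0.192 with 1 library left out). It averaged under 1 FPKM in wild type, so it passed the filter only through its knockout values. Rspo3, which encodes R-spondin 3, was at 4.26, 4.96 and 3.12 FPKM in knockout, against 2.52, 3.38 and 2.63 FPKM in wild type, with overlap (log2 difference 0.40; limma, adjusted p = 0.164). The ligand Wnt9b, below the filter, was at 0.35, 0.720 and 1.02 FPKM in knockout, against 0.478, 0.626 and 0.445 FPKM in wild type.

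Of 19 Wnt receptors and transducers, 16 were tested and only Fzd4 was called, higher. Fzd4, a Frizzled receptor, averaged 6.98 ± 1.53 FPKM in knockout and 4.02 ± 0.533 FPKM in wild type (SD, n = 3 each; log2 difference 0.66 ± 0.151, SE; limma, adjusted p = 0.0449). Its call was lost without knockout replicate 2 or 3 or any wild-type library (adjusted p from 0.0816 to 0.144). The list's median log2 difference was 0.12. Of 17 Wnt inhibitors and destruction complex genes, 11 were tested and only the kinase gene Gsk3a was called, higher, at 24.1 ± 1.35 FPKM in knockout and 18.3 ± 0.915 FPKM in wild type (SD, n = 3 each; log2 difference 0.38 ± 0.0838, SE; limma, adjusted p = 0.039). That call was lost with any 1 library left out (adjusted p from 0.0537 to 0.135) and after median-of-ratios scaling, and the list's median was 0.02.

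Endothelial markers are given beside these ligand and receptor values. Of 10 such markers, all were tested and 2, Lyve1 and Pecam1, were called higher, beside 5.3% of all genes tested. The difference was positive for 8 of the 10, with a median log2 difference of 0.29, beside 0.07 over all genes tested. The summed level of the 10 was 129 to 149.6 FPKM in knockout and 112 to 131 FPKM in wild type, with overlap. None of the 10 was at 0 in any library. Lyve1, a hyaluronan receptor of liver sinusoidal endothelium, averaged 9.64 ± 0.361 FPKM in knockout and 3.53 ± 0.392 FPKM in wild type (SD, n = 3 each; limma, adjusted p = 0.00176), and kept its call with any 1 library left out. Pecam1, an endothelial junction protein gene, had an adjusted p of 0.0487 (limma) and lost its call with any library but knockout replicate 1 left out (adjusted p from 0.0518 to 0.156). Its call was also lost with the replicate block (adjusted p = 0.0538). The part of endothelial RNA in the values of Wnt2, Rspo3 and Fzd4 was not tested.

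Other genes known from pericentral hepatocytes moved in both directions, several with larger log2 differences than any of the 9. Of 28 listed, all were tested, with 6 called higher, 3 called lower and a median log2 difference of 0.02. Over all genes tested, 5.3% were called higher and 1.6% lower, and the median was 0.07. The 6 higher calls include the related genes Gstm1, Gstm2 and Gstm3. Gstm3, a glutathione transferase, averaged 99.4 ± 46.8 FPKM in knockout and 20.6 ± 4.52 FPKM in wild type (SD, n = 3 each; log2 difference 2.14 ± 0.296, SE; limma, adjusted p = 0.0101), though Gstm genes have close copies and their values are uncertain. The 3 lower calls include Avpr1a, the vasopressin receptor of hepatocytes, and Ang, angiogenin. Avpr1a was at 6.14, 4.49 and 4.21 FPKM in knockout replicates 1 to 3, against 18.3, 30.1 and 20.7 FPKM in wild-type replicates 1 to 3, with a wide gap between the groups. Its log2 difference was -2.00 ± 0.196 (SE; limma, adjusted p = 0.00339), and it kept its call with any 1 library left out. Ang averaged 61.4 ± 13.6 FPKM in knockout and 139.5 ± 26.2 FPKM in wild type (SD, n = 3 each; limma, adjusted p = 0.0164), and lost its call without wild-type replicate 2 (adjusted p = 0.0576). The 6 higher calls dropped to 1 without knockout replicate 2 or wild-type replicate 1 or 2. The 3 lower calls dropped to 1 without wild-type replicate 2 and became 6 without knockout replicate 1.

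The periportal list, with 22 of 22 tested, had 2 called higher and 3 called lower and a median log2 difference of -0.29. Over all genes tested, the shares called were 5.3% higher and 1.6% lower. Beside Cps1, the lower calls were Hal, the histidine ammonia lyase gene, and Etnppl, an ethanolamine phosphate enzyme, at 23.4 ± 2.80 FPKM in knockout and 41.9 ± 9.74 FPKM in wild type (SD, n = 3 each; limma, adjusted p = 0.0343). Hal lost its call with any library but knockout replicate 1 left out (adjusted p from 0.096 to 0.131). Etnppl kept its call only without wild-type replicate 2, and otherwise had an adjusted p from 0.0528 to 0.126. The higher calls were the lipid droplet enzyme Hsd17b13 (log2 difference 0.71; limma, adjusted p = 0.0127) and the apolipoprotein gene Apoa4 (log2 difference 2.30; adjusted p = 0.0328). Hsd17b13 lost its call without knockout replicate 2 (adjusted p = 0.0581), and Apoa4 without any 1 knockout library (adjusted p from 0.0595 to 0.114). Cps1 kept its call with any 1 library left out, and the lower calls of the list numbered 1 without knockout replicate 2 or wild-type replicate 1 or 3. No test compared this list with the pericentral one.

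Genes next to Glul and Oat in metabolism, and those around the P450 genes, had 3 calls in all. These were 1 of 19, 1 of 5 and 1 of 11 tested genes, beside 6.9% of all genes tested. Of 26 genes of glutamine, glutamate, ornithine and ammonium handling, 19 were tested and only Slc25a15 was called. Slc25a15, the mitochondrial ornithine carrier that feeds Oat and the urea cycle, was lower at 100.2 ± 7.40 FPKM in knockout, against 130.6 ± 3.89 FPKM in wild type (SD, n = 3 each; limma, adjusted p = 0.0461), and the call was lost with any 1 library left out (adjusted p from 0.0905 to 0.119). Of 10 Ah receptor pathway genes, 5 were tested and Nqo1, a quinone reductase gene, was higher at 6.84 ± 2.17 FPKM in knockout, against 2.48 ± 0.475 FPKM in wild type (SD, n = 3 each; limma, adjusted p = 0.0236). It lost its call without knockout replicate 2 or wild-type replicate 2 or 3 (adjusted p from 0.06 to 0.0997). Cyp1a1, the closest relative of Cyp1a2, was at 0.203 to 0.359 FPKM in knockout and 0.0334 to 0.403 FPKM in wild type, below the filter. Of 11 P450 partners and regulators, all were tested and only Ppara, which encodes a fatty acid-sensing nuclear receptor, was called. Ppara was higher at 61.6 ± 6.94 FPKM in knockout, against 38.8 ± 5.72 FPKM in wild type (SD, n = 3 each; limma, adjusted p = 0.0275), and lost its call without knockout replicate 2 or 3 or wild-type replicate 2 or 3 (adjusted p from 0.0587 to 0.102). The median log2 differences of these lists were 0.12, 0.19 and 0.17 in the order given.

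**Figure D4:**
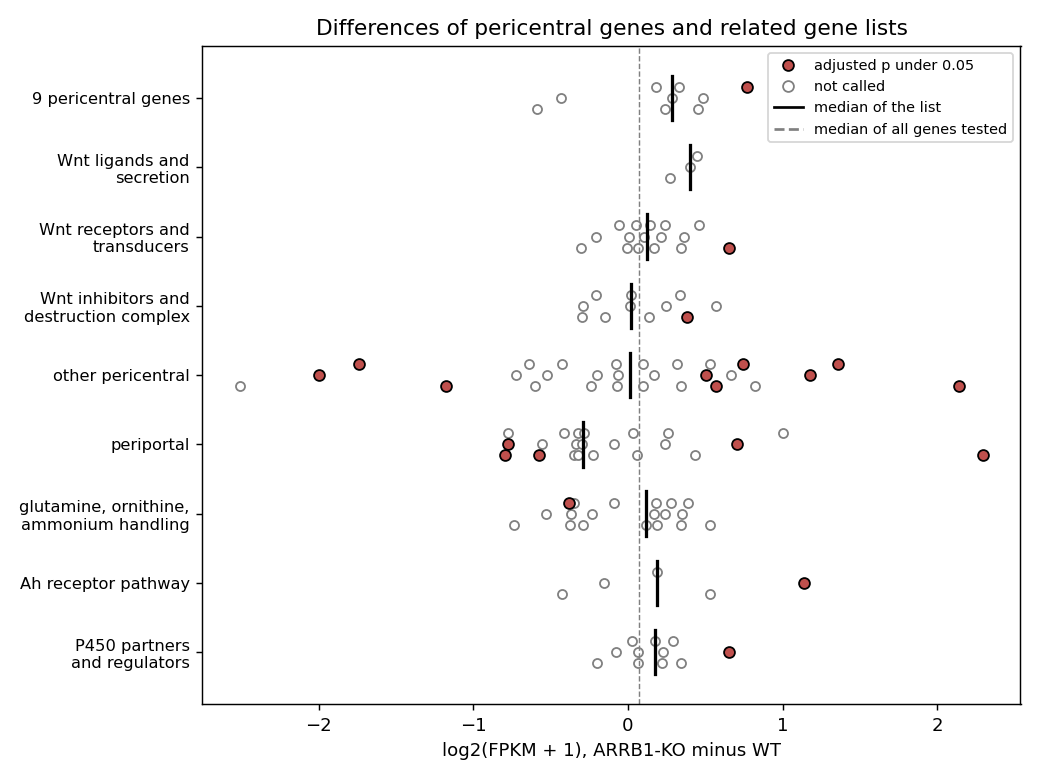
Difference in log2(FPKM + 1), ARRB1-KO minus WT, of every tested gene (circles, filled where the adjusted p was under 0.05) in the 9 pericentral genes and 8 related lists, with each list's median (black bar) and the median of all genes tested at 0.07 (dashed line). The other pericentral genes spread most widely around 0, and the periportal median of -0.29 lies below the dashed line.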

How the data were processed

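The authors deposited 1 table of FPKM, with 1 value per gene symbol and library. The submitters' processing notes name Bowtie 0.12.2, HISAT2, mm8 and mm10; their roles, the annotation, strandedness and the handling of multiply matching reads are not given in the sources used here. Groups were taken from the sample titles. Per the labels' protocols, libraries were made with a TruSeq kit from 1 ug of total RNA.

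Log2(FPKM + 1) values of the 10633 genes averaging at least 1 FPKM were fitted on genotype alone with limma 3.58.1 (R 4.3.3; eBayes with trend; two-sided tests). Genes were called at a Benjamini-Hochberg adjusted p under 0.05 over the whole set. Fold changes on this scale understate those of low genes. Whole reads were recovered from the FPKM steps within 0.001 reads plus 5e-08 of the count, never over 0.05 reads, for 17549 of 17549 genes above 0 in at least 4 libraries. Total depth was set from 2879 single-transcript genes of GENCODE vM21, 528 of which agree within 0.5%, so totals are estimates. Exact permutation tests and plots used Python 3.11.15.

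The 9 genes and the lists were chosen with earlier results of these data known. Named genes are the 9, Arrb1, the genes of the ratios, up to 4 called genes with the smallest p per list or else the 2 with the smallest p, and the 3 most similar genes to Glul and to Cyp2e1; Wnt9b, Cyp1a1, Hal, Lyve1 and Pecam1 were added after their values were seen. A gene that this rule names is not reported here. As alternatives, the pseudocount was set to 0.1, the filter was dropped or raised to 5 FPKM, values were scaled to TPM, by median of ratios or by quantiles, eBayes was run without trend or robustly, replicate numbers were blocked, single libraries were left out, and voom was run on the recovered reads. Gene positions come from RefSeq on GRCm38.p6, not from the deposit. On simulated reads for knockout against wild type, 60.6% of genes changed 2-fold and 87.9% of those changed 4-fold were recovered among 10605 tested.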

Additional observations from a re-analysis of the deposited data

How the results depend on the processing

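Over the alternatives, the count of the 9 genes called higher, 1 as reported (Rhbg), was 2 on the TPM scale and 2 by voom on recovered reads, Glul being added in both. The count called lower, 0 as reported, ran from 0 to 1 with 1 library left out, the 1 being Lgr5 without knockout replicate 1. Over the refits of each of the 9 genes, 138 values kept direction and side of the threshold, 3 gained a call, and 1 turned, that of Tbx3, which ran from -0.25 to 0.66 with 1 library left out. The log2 ratio of Cyp2e1 to Cyp2f2, which differed by -0.0012, ran from -0.1415 to 0.2436 with 1 library left out, and those of Glul to Gls2 and to Cps1 kept their sign throughout.

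The samples share replicate numbers. The correlation of deviations from the group means was 0.17, -0.06 and 0.10 for numbers 1, 2 and 3, and knockout replicate 3 correlated best with wild-type replicate 2 (0.13), so the numbers were not taken as pairs. With the replicate block, Rhbg stayed called (adjusted p = 0.0152), 1 of the 9 was higher and 0 lower, 280 genes of the table were higher and 122 lower, the ratios differed by 0.80, 1.23 and -0.0012, and Fzd4, Gsk3a, Slc25a15, Ppara and Pecam1 were not called.

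Over all genes, 564 higher and 170 lower calls became 88 and 58 with no filter and 990 and 172 on the TPM scale, and ran from 94 to 422 and from 54 to 119 with 1 library left out. With no filter the other pericentral genes had 0 higher and 1 lower, the periportal genes 0 and 1, the endothelial and the hepatocyte markers 1 higher each, and the other lists with calls 0. Higher calls on the TPM scale numbered 4 for periportal genes, 2 for Wnt inhibitors, 2 for P450 partners, 1 for Wnt ligands and 1 for glutamine handling. Over all genes, voom called 792 higher and 201 lower. By voom, the periportal genes had 4 higher and 5 lower, Wnt inhibitors 2 higher, Wnt ligands 1 higher and glutamine handling 2 lower. Without trend, Wnt2 was called higher. Gsk3a and Pecam1 were not called without trend or after median-of-ratios or quantile scaling, Slc25a15 not without trend, Fzd4 not after quantile normalization Arrb1 and Apoa4 not with robust estimation, and Nqo1 was not tested at the 5 FPKM filter. Axin2, the lowest of the 9 genes by level, had 61 to 528 reads a library. The 61 were in wild-type replicate 3, and knockout replicate 1, the shallowest library, had 179. The causes of these changes were not tested.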

Other observations

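The genes whose log2(FPKM + 1) followed Glul most closely over the 6 libraries, among 4212 genes averaging 10 FPKM or more, were Rmnd5a (Pearson r = 0.991), Slc13a3 (0.991) and Xdh (0.989). Slc13a3, a dicarboxylate transporter gene listed with the other pericentral genes, was at 29.0, 26.7 and 21.8 FPKM in knockout replicates 1 to 3, against 15.1, 16.8 and 13.0 FPKM in wild-type replicates 1 to 3. It was called higher (log2 difference 0.75; limma, adjusted p = 0.0215), and lost its call without knockout replicate 2 or any wild-type library. Xdh, which encodes xanthine dehydrogenase, was at 45.4, 45.3 and 42.0 FPKM in knockout, against 39.0, 40.1 and 38.7 FPKM in wild type, and did not pass the test (limma, adjusted p = 0.22). The closest to Cyp2e1 were Zdhhc18 (0.974), Fah (0.954) and Ctage5 (0.953), none of which passed. These correlations describe 6 libraries in which genotype and library order are both at work, and they carry no test.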
